A study of Mus musculus with 35 samples.

Results

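The genes described here encode the subunits, activators and assembly factors of the mouse proteasome. They are all genes whose symbol matches Psma, Psmb, Psmc, Psmd, Psme, Psmf or Psmg followed by a number, with 1 array probe per gene (the probe with the highest mean over all arrays). The rule found 50 genes among the 20886 named genes of the array. Of these, 5 are immunoproteasome genes (Psmb8, Psmb9, Psmb10, Psme1 and Psme2), and the other 45 are taken apart from them. The rule works on names, so it also took Psmc3ip and Psme3ip1, which are named after proteasome genes but encode no subunit.

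The 35 samples, each on a one-colour array, came from wild type C57BL/6 mice, all healthy females 8 to 16 weeks old. CD8+ resident memory T cells (Trm), which stay in a tissue, were taken from liver (n = 5), lung (n = 6) and small intestine (n = 6) by successive magnetic selections for CD8b and CD103. Their sorted counterpart was CD8b+ CD62L- effector memory T cells (Tem, n = 6) from the blood of the same animals. Whole liver, whole lung, whole small intestine and whole blood mononuclear cells (PBMC) had 3 arrays each and were taken without a sort, to show how much tissue RNA the sorts carried along. All groups share this genotype, and the labels name no treatment. Which sample came from which animal is not stated, so p-values measure only the spread between these samples, which may be technical in part. CD8b and CD103 were used to choose the cells, and the magnetic sort gives enriched rather than single populations.

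The proteasome is the main protease of the cytosol and nucleus. A barrel of alpha and beta rings (the 20S core) cuts proteins inside its chamber, and a cap of ATPases and other subunits (the 19S particle) binds proteins tagged with ubiquitin, unfolds them and feeds them in. Interferon-gamma induces the immunoproteasome, in which Psmb8, Psmb9 and Psmb10 take the places of the catalytic subunits Psmb5, Psmb6 and Psmb7. Psme1 and Psme2 form a ring that opens the core without ubiquitin. Immunoproteasomes are abundant in lymphocytes and favour peptides that fit MHC class I molecules. By role, the 50 genes comprised 8 alpha ring, 8 constitutive beta ring, 5 immunoproteasome, 6 ATPase, 11 other 19S and 7 assembly chaperone genes, with 3 other activators or inhibitors and the 2 genes that are no subunit.

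Of the 50 genes, 45 were tested, those with a probe well above background in some group (3 arrays of it or more). The others were Psma8 (an alpha subunit of the testis), Psmb11 (the catalytic subunit of thymic cortical epithelium), Psmd11 (a 19S subunit), Psmf1 (an inhibitor) and Psmc3ip. On all 23 arrays of sorted cells, 32 genes were well above background, and 39 were on 20 or more. Of the tested genes 6 were seen on fewer sorted arrays: Psmb2 on 12, Psmd14 on 8, Psmd10 on 10, Psme4 on 6, Psmd6 on 14 and Psmd5 on 16. Values below are log2 levels relative to a 75th percentile of the same array. A level of one probe cannot be set against that of another.

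The share of probes well above background ran from 12.2% to 35.5% on sorted arrays (median 26.0%) and from 7.80% to 64.6% on whole-sample arrays. Liver Trm 3 (12.2%), Tem 3 (35.5%), whole liver 2 (64.6%) and whole PBMC 1 (7.80%) stood apart, and lung Trm 5 was the lowest lung array for all 5 immunoproteasome genes. Rank correlations across probes were 0.793 to 0.937 between replicates of the sorted groups, and whole PBMC went as low as 0.473. The T cell markers were present in every sorted group. Their summed linear level ran from 2.60 to 7.14 for the liver Trm arrays, 4.04 to 7.19 for lung, 3.02 to 7.63 for intestine and 6.11 to 11.4 for Tem, against 0.0266 to 0.199 for whole liver. The sorted arrays lay on 6 slides with 1 array of each group per slide (1 slide held no liver Trm), and the whole samples were on 3 other slides with another scan.

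Promoters of 4 of these genes are shown as examples: 3 immunoproteasome genes, of which 2 hold an interferon motif and 1 holds none, and Psmb5, the subunit that Psmb8 replaces. They were picked with the motif matches known, and the windows of Psmb10 and Psme2, not printed, hold none of the 3 motifs marked here. The sequences are RefSeq windows of GRCm38.p6 that run from 250 bases before to 50 bases after the start site, written 5′ to 3′ on the strand of the gene. Capitals mark a match to TTCNNNGAA (the gamma-activated site) in Psmb8, to a pair of IRF half-sites (GAAA, any 2 bases, GAAA, here on the opposite strand) in Psme1, and to TGACNNNGC (the antioxidant response element) in Psmb5. The Psmb8 window is chr17:34197945-34198244 on the plus strand, the Psmb9 window chr17:34187281-34187580 on the minus strand, the Psme1 window chr14:55578244-55578543 on the plus strand and the Psmb5 window chr14:54617946-54618245 on the minus strand.
Psmb8: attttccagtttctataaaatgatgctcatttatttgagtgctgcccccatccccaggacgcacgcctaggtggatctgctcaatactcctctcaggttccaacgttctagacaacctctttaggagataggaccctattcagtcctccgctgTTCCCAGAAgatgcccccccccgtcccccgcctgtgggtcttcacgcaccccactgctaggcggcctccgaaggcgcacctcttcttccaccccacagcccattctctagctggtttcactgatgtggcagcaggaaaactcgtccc
Psmb9: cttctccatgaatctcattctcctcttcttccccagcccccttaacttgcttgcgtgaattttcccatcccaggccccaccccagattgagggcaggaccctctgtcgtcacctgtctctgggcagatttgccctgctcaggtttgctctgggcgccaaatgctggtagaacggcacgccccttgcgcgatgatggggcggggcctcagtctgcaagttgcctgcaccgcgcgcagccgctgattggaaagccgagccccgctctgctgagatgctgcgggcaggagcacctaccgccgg
Psme1: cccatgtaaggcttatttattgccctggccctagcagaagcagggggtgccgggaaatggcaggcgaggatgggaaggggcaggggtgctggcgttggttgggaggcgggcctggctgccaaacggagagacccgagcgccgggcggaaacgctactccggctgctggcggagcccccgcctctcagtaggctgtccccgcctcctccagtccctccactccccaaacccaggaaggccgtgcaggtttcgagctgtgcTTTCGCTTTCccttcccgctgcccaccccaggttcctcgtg
Psmb5: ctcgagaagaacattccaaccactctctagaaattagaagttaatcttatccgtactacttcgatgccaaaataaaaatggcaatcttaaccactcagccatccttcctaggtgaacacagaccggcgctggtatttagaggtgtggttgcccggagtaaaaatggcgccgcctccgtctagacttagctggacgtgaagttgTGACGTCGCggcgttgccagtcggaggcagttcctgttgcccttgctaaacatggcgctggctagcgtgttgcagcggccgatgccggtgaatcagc
The Psmb9 window held none of these 3 motifs, and it shares 275 bases with the window of Tap1, a transporter gene of the antigen processing pathway that starts in the opposite direction.

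In all, 42 of the 50 genes had 46 windows, of which 6 belong to immunoproteasome genes. Both strands were searched, and matches may overlap other motifs. The gamma-activated site stood in 1 of the 6 immunoproteasome windows, 3 of the 46 windows and 8.30% of all 32851 windows. The IRF pair stood in 1 of the 6, 5 of the 46 and 3.44% of all windows, and the antioxidant element in 0 of the 6, 6 of the 46 and 12.4%. The promoter box GGGCGG stood in 4 of the 6, 25 of the 46 and 35.7%. These matches describe letters in a window and say nothing of binding.

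Liver Trm were set against blood Tem to ask how resident cells of the liver differ from circulating memory cells. All 5 immunoproteasome genes fell in liver Trm. Psmb8 and Psmb9, which encode the catalytic subunits LMP7 and LMP2, fell most, and the constitutive catalytic genes Psmb5, Psmb6 and Psmb7 did not pass the test. Of the 45 tested genes, 17 were called lower and 2 higher (all genes: 25.2% lower, 14.9% higher, 40.1% in either direction), with a median of -0.47 against -0.27 over all genes tested. The median was -0.80 for the immunoproteasome genes and -0.41 for the other 40.

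Psmb8 stood at -0.96, -1.12, -1.50, -1.61 and -1.24 in liver Trm, against -0.57 to 0.38 in Tem (median -0.14). Every liver Trm array was below every Tem array. The difference was -1.18 ± 0.28 on the log2 scale (SE; limma with Benjamini-Hochberg adjustment over all genes, adjusted p = 0.00433), and it was negative on all 5 slides that hold both groups (-1.65 to -0.72).

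Psmb9, whose product takes the place of Psmb6, stood at -1.56, -1.68, -1.66, -2.16 and -1.75 in liver Trm, against -1.35 to 0.15 in Tem (median -0.63). Again no liver Trm array reached the Tem range. The difference was -1.17 ± 0.31 (limma adjusted p = 0.00789; -1.84 to -0.31 within slides).

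Psmb10, whose product takes the place of Psmb7, stood at 0.00, -0.38, -0.34, -0.29 and 0.25 in liver Trm, against -0.06 to 0.87 in Tem (median 0.77). The groups overlapped through 1 low array, Tem 3. The difference was -0.80 ± 0.28 (limma adjusted p = 0.0267; -1.26 to -0.28 within slides), and the call was lost without liver Trm 3 (-0.75, adjusted p = 0.0624) or liver Trm 5 (-0.76, adjusted p = 0.0583).

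The activator genes moved less. Psme1 stood at 0.47, 0.35, 0.21, -0.31 and 0.18 in liver Trm, against 0.51 to 0.76 in Tem (median 0.69), a difference of -0.49 ± 0.19 (limma adjusted p = 0.0483; -0.92 to -0.17 within slides). Psme2 stood at -0.05, -0.05, -0.27, -0.63 and -0.18 in liver Trm, against 0.16 to 0.49 in Tem (median 0.39), a difference of -0.60 ± 0.22 (limma adjusted p = 0.0327; -0.92 to -0.42 within slides). Neither gene overlapped between the groups, but both calls were close to the threshold. The Psme1 call was lost, with an adjusted p in limma of up to 0.151, without liver Trm 3, 5 or 6 or Tem 1, 2, 4, 5 or 6. It was also lost in 4 of 11 other settings, among them the slide as a block (-0.45, limma adjusted p = 0.0884). The Psme2 call was lost, with an adjusted p in limma of up to 0.0961, without liver Trm 3, 5 or 6 or Tem 1, 4 or 6. It was also lost in 3 of 11 other settings, among them the slide as a block (-0.55, limma adjusted p = 0.0547).

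**Figure D1:**
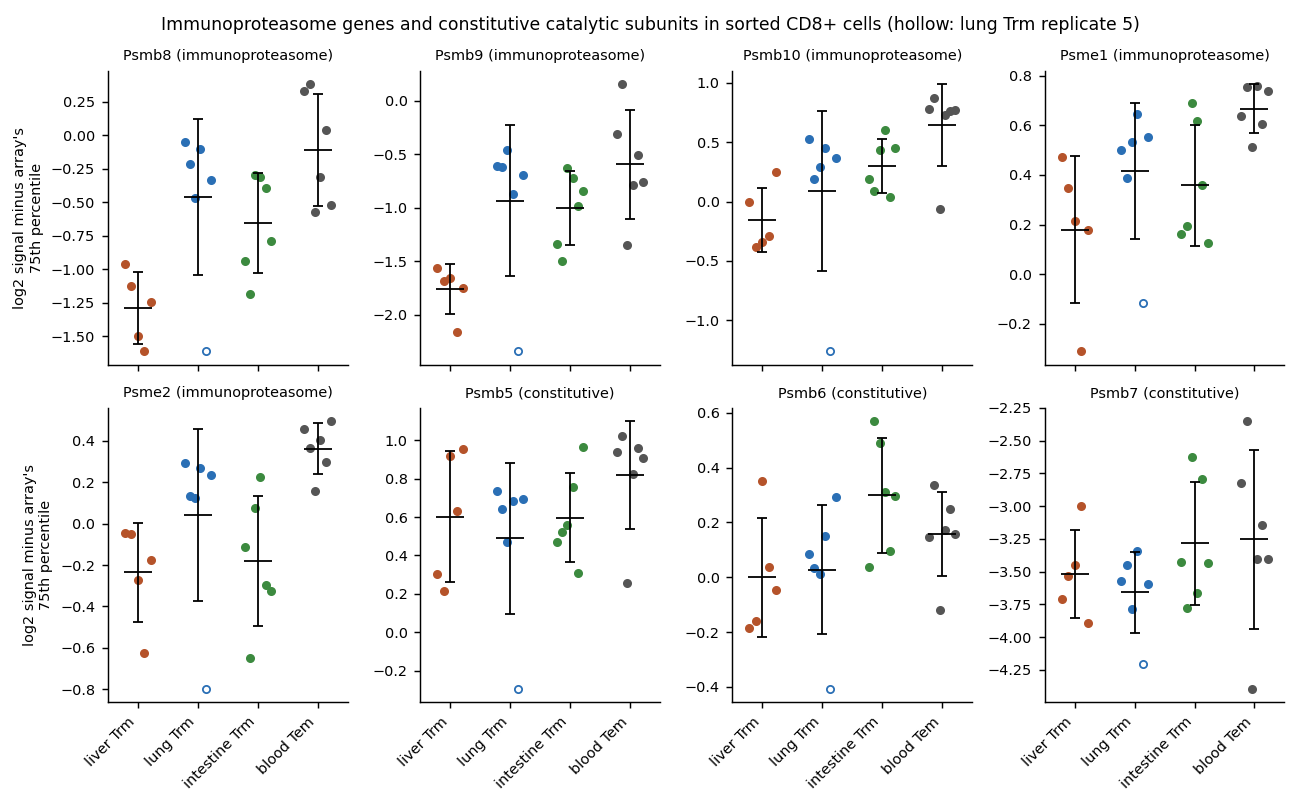
Log2 levels of the 5 immunoproteasome genes and of Psmb5, Psmb6 and Psmb7 on each array of sorted cells, relative to the 75th percentile of the array, with groups on the horizontal axis and 1 point per array; the line is the group mean and the bar its SD. Liver Trm lie lowest on average for Psmb8 (-1.61 to -0.96, against -0.57 to 0.38 in Tem), and the hollow point is lung Trm 5, the lowest lung array for each gene.

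Psmb5, the subunit that Psmb8 replaces, stood at 0.30, 0.21, 0.92, 0.63 and 0.95 in liver Trm, against 0.26 to 1.02 in Tem (median 0.92). The ranges overlapped, and the difference of -0.22 ± 0.23 was not called (limma adjusted p = 0.437). Psmb6 differed by -0.16 ± 0.18 (adjusted p = 0.479) and Psmb7 by -0.26 ± 0.30 (adjusted p = 0.483), both uncalled by limma. A second probe of Psmb5 differed by -0.61, and a second probe of Psme2 by -1.31.

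The difference of an immunosubunit and its counterpart was also taken within each array, which removes the scaling of the array and shows unequal change between groups. The value itself depends on the 2 probes, and only its difference between groups is read. Exact two-sided permutation tests over samples were run for 3 such pairs in 10 comparisons, 30 tests adjusted together, and 8 passed. Psmb8 minus Psmb5 averaged -1.89 ± 0.55 in liver Trm and -0.93 ± 0.31 in Tem (SD, n = 5 and 6), a difference of -0.96 (exact permutation p = 0.00866, adjusted p = 0.0446, lower on 5 of 5 slides). Psmb9 minus Psmb6 averaged -1.76 ± 0.34 in liver Trm and -0.75 ± 0.38 in Tem (SD, n = 5 and 6), a difference of -1.01 (exact permutation p = 0.00433, adjusted p = 0.0446, lower on 5 of 5 slides). Psmb8 and Psmb9 thus lay lower in liver Trm relative to their counterparts as well as on the array's scale. Psmb10 minus Psmb7 differed by -0.54 and did not pass (exact permutation p = 0.0974, adjusted p = 0.172).

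These 8 calls lay just inside the threshold. No pair passed without the 4 arrays that stood apart (smallest adjusted p 0.0510) or when all probes of a gene were averaged (smallest adjusted p 0.0510), and none among sorted cells with the slide as a block (smallest adjusted p 0.281, in an exact permutation test over 5 or 6 slides that cannot pass after adjustment), and 15 passed with quantile normalization. With single arrays left out, 14 passed without lung Trm 5 and 11 without intestine Trm 2. The count was 8 without liver Trm 1, liver Trm 2 or any 1 whole liver array, and 0 without any 1 of the other arrays. Against whole tissue, the pairs that passed already had the smallest p their group sizes allow (0.0119 for 6 against 3). Leaving out an array of those groups raises that smallest p (it is 0.0179 for 5 against 3). A count can therefore fall through group sizes alone.

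**Figure D2:**
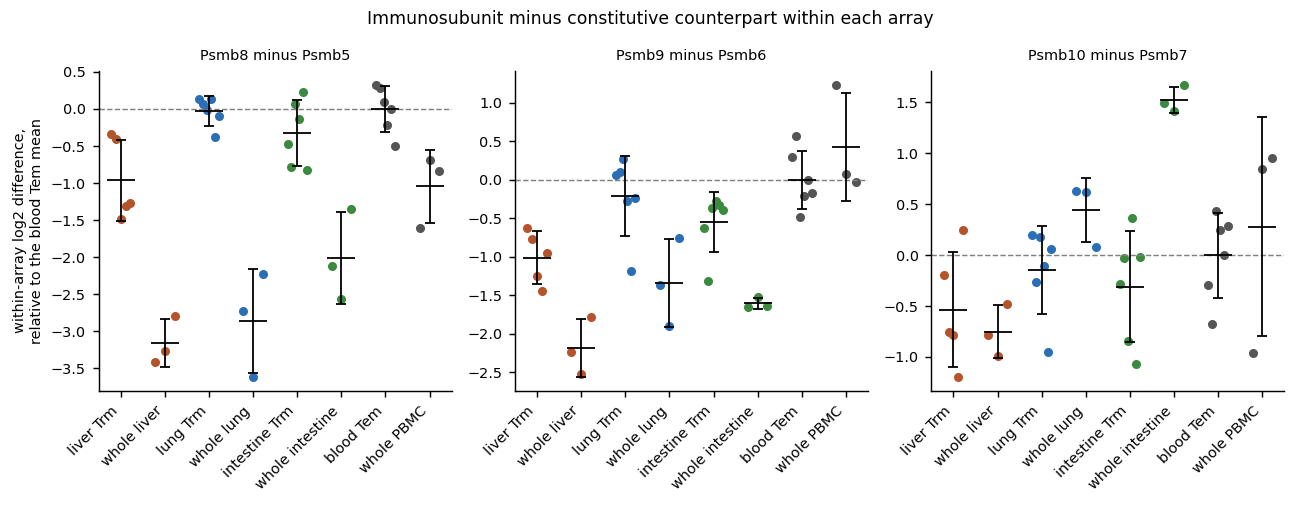
Within-array log2 difference of each immunosubunit minus its constitutive counterpart, drawn relative to the Tem mean (dashed line at 0), by group, with 1 point per array, a line for the group mean and bars of 1 SD. For Psmb8 minus Psmb5 the mean lies at -0.96 in liver Trm, -0.02 in lung Trm and -0.32 in intestine Trm.

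In the 19S cap, 6 of the 10 non-ATPase genes were called lower in liver Trm and 1 higher. Psmd1, a large scaffold subunit of the base, stood at -3.22, -3.26, -4.48, -3.20 and -4.10 in liver Trm, against -2.48 to -1.87 in Tem (median -2.31). The groups did not overlap, and the difference of -1.41 ± 0.32 was called (limma adjusted p = 0.00366). Psmd7, a lid subunit and partner of the deubiquitinase Psmd14, stood at -2.53, -3.34, -2.64, -2.71 and -3.13 in liver Trm, against -2.35 to -1.50 in Tem (median -1.85), a difference of -0.97 ± 0.27 (limma adjusted p = 0.0109). Psmd8, another lid subunit, stood at -4.35, -3.72, -4.78, -4.62 and -4.75 in liver Trm, against -4.27 to -2.92 in Tem (median -3.37). Its groups overlapped, its difference was -0.93 ± 0.30 (limma adjusted p = 0.0207), and the call was lost without liver Trm 3 (adjusted p = 0.0564) or liver Trm 6 (adjusted p = 0.0563) and with normexp background correction (-0.33, adjusted p = 0.250).

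The other 3 that fell there were Psmd12, Psmd2 and Psmd6, by 0.90 to 1.00 on the log2 scale. Psmd14, which removes ubiquitin chains, was the gene called higher (limma adjusted p = 0.0365), but it was well above background on only 1 of 5 liver Trm and 1 of 6 Tem arrays. Its fitted difference of 0.98 is not a measured fold, and it is smaller than the median of 1.33 among the 19966 probes never above background. Psmd6 was above background on 1 of 5 liver Trm arrays.

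Of the 6 ATPase genes, Psmc2 alone fell. It stood at -1.24, -1.03, -1.11, -1.11 and -1.41 in liver Trm, against -0.54 to 0.08 in Tem (median -0.36), without overlap. Its difference was -0.88 ± 0.20 (limma adjusted p = 0.00320), and its second probe gave -0.90. Among the ring genes, 3 of 7 alpha genes (Psma1, Psma2 and Psma5, by 0.65 to 0.75 on the log2 scale) and 1 of 7 constitutive beta genes (Psmb3, -0.61) fell.

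Of the 7 assembly chaperone genes, Psmd9 rose and Psmd10 fell. Psmd9, a chaperone of the cap's ATPase ring, stood at -4.22, -4.68, -3.16, -3.83 and -2.96 in liver Trm, against -5.86 to -4.35 in Tem (median -4.78). The ranges overlapped through 1 liver Trm array, replicate 2, and the difference was 1.11 ± 0.30 (limma adjusted p = 0.00850). Psmd9 was well above background on 22 of 23 sorted arrays, but its difference is smaller than the median of 1.33 among probes never above background. The part of that shift in it was not tested. A second probe, above background on only 2 arrays, differed by 0.80. Psmd10 was not well above background on any liver Trm array, and its fitted difference of -1.39 is not a measured fold.

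In all, 11 of the 45 genes were lower in liver Trm with no overlap between the groups (all genes: 10.6%), and 0 were higher without overlap (3.77%). The count of 19 called genes was 12 without liver Trm 3, 12 without liver Trm 6, 10 without the 4 arrays that stood apart and 37 (36 lower, 1 higher) with scaling over all probes, which moved the median of all genes to -0.74.

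Markers of other cells moved with this comparison. All 8 hepatocyte markers rose in liver Trm, with a summed linear level of 1.19 to 10.66 (6 to 8 markers above background), against 0.0359 to 0.0656 in Tem (0 to 1) and 12.6 to 13.8 in whole liver. Of the sinusoidal and Kupffer cell markers 4 of 4 tested rose (0.145 to 0.790 in liver Trm, 0.0114 to 0.0424 in Tem), as did 4 of 4 neutrophil markers (0.102 to 0.934 in liver Trm, 0.00437 to 0.401 in Tem). Of the 7 T cell markers tested, 2 fell, with a median of -0.49. The part of these markers, and of the background described above for Psmd14, in the proteasome differences was not tested. In such bulk samples, fewer cells of a type and less RNA per cell cannot be told apart.

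**Figure D3:**
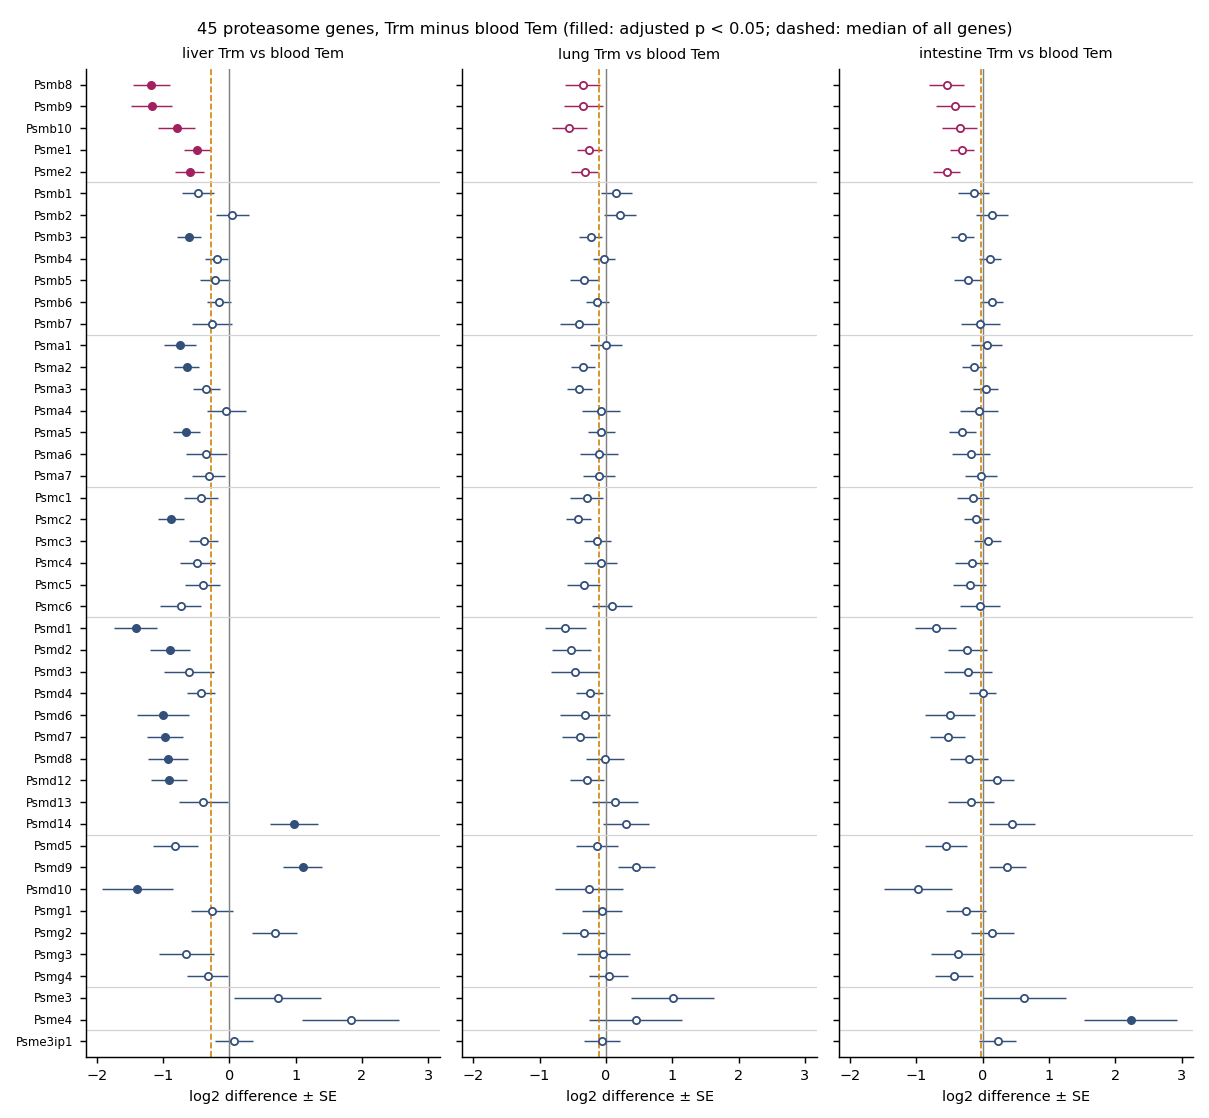
Log2 difference of each tested gene in liver, lung and intestine Trm minus blood Tem, with genes ordered by role down the page and bars of 1 SE; filled dots passed an adjusted p of 0.05 in limma and the dashed line is the median of all genes tested. Filled dots number 19 in liver Trm, 0 in lung Trm and 1 in intestine Trm.

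The related lists are read against the 25.2% of all genes that were lower and the 14.9% that were higher in liver Trm. In the antigen processing list 6 of 14 genes (42.9%) fell and 0 rose, led by the cytosolic peptidase gene Tpp2 (-2.03 ± 0.45, limma adjusted p = 0.00320), the loading complex gene Pdia3 (-1.70 ± 0.51, limma adjusted p = 0.0145) and Nlrc5, an activator of MHC class I transcription (-1.54 ± 0.51, limma adjusted p = 0.0216). Of the interferon response list 7 of 15 (46.7%) fell and 0 rose, led by the guanylate-binding protein genes Gbp3 (-2.17 ± 0.33) and Gbp2 (-1.91 ± 0.44) and with them the transcription factor gene Irf2 (above background on 0 of 5 liver Trm arrays). Of the list of proteasome cofactors and ubiquitin supply 6 of 21 (28.6%) fell and 0 rose, a share close to that of all genes, and they included Adrm1, a ubiquitin receptor of the cap (-1.15 ± 0.25), Akirin2, which brings proteasomes into the nucleus (-0.97 ± 0.25), and Usp14, a deubiquitinase of the cap (-0.89 ± 0.26). Tpp2 was above background on 2 of 5, Pdia3 on 1 of 5 and Gbp3 on 2 of 5 liver Trm arrays, and Irf2 is not a measured fold there. The median differences of the 3 lists were -0.72, -0.91 and -0.37 on the log2 scale, beside -0.27 over all genes tested.

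Lung Trm against blood Tem gave no called proteasome gene: 0 of 45 passed in limma (all genes: 2.09% higher, 1.02% lower, 3.11% in all), 3 had an unadjusted p under 0.05, and 0 passed when any single array of these groups was left out. The 5 immunoproteasome genes lay below Tem on average, at -0.55 for Psmb10, -0.35 for Psmb8, -0.34 for Psmb9, -0.32 for Psme2 and -0.25 for Psme1 (limma adjusted p = 0.323 to 0.622). Their median was -0.34, against -0.10 over all genes. No gene was without overlap in either direction, 0 higher and 0 lower (all genes: 1.36% higher, 1.51% lower).

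Psmb8 ran from -1.60 to -0.05 in lung Trm (median -0.27), against -0.57 to 0.38 in Tem (median -0.14). The low end is lung Trm 5 alone, and the other lung arrays lay between -0.46 and -0.05, inside the Tem range. Without lung Trm 5 the Psmb8 difference was -0.12. With array weights, 1 of the 45 genes was called.

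Markers of other cells rose here too. Of the lung epithelial markers 4 of 6 rose (summed linear level 0.0452 to 7.53 in lung Trm, 0.0132 to 0.0555 in Tem), as did 4 of 5 alveolar macrophage and monocyte markers. Neutrophil markers summed to 0.217 to 1.60 in lung Trm (median 0.980), against 0.00437 to 0.401 in Tem (median 0.0140), so they were not particular to liver Trm. In the antigen processing and cofactor lists 0 genes passed, and in the interferon response list Gbp3 fell (-1.48). Irf2 was also called lower, but it was above background on 1 of 6 lung Trm and 4 of 6 Tem arrays, so no fold is given.

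Intestine Trm against blood Tem gave 1 called gene of 45, higher (all genes: 7.97% higher, 9.56% lower, 17.5% in all), and 0 genes without overlap (all genes: 3.2% higher, 4.67% lower). This was Psme4, which encodes an activator that caps the core without ubiquitin. It was well above background on 3 of 6 intestine Trm and 0 of 6 Tem arrays. Its level ran from -7.24 to -4.56 in intestine Trm (median -5.36), against -10.37 to -6.77 in Tem (median -7.69). The fitted difference of 2.23 ± 0.70 (limma adjusted p = 0.0308) is not a measured fold. The median among the 19966 probes never above background was 0.70 in this comparison. The call was lost without intestine Trm 1, 3 or 5 or Tem 1, 3 or 4, and the calls split into 0 up and 2 down with quantile normalization and 0 up and 3 down when all probes set the scale.

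The immunoproteasome genes again lay below Tem on average in intestine Trm, with a median of -0.41 against -0.03 over all genes, and none was called by limma. Psme2 was called in 5 of 11 other settings (-0.81 to -0.52), among them quantile normalization (-0.67, limma adjusted p = 0.0249). Psmb8 differed by -0.54 ± 0.27 (adjusted p = 0.172), Psme2 by -0.54 ± 0.21 (adjusted p = 0.0727), Psmb9 by -0.41 ± 0.29 (adjusted p = 0.354), Psmb10 by -0.34 ± 0.26 (adjusted p = 0.385) and Psme1 by -0.31 ± 0.18 (adjusted p = 0.267). Psme2 was lower on 6 of 6 slides in intestine Trm and also on 6 of 6 in lung Trm. The 3 comparisons share the Tem arrays.

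Psmb8 ran from -1.18 to -0.30 in intestine Trm (median -0.59), overlapping the Tem range. Psmb9 minus Psmb6 differed by -0.55 between intestine Trm and Tem (exact permutation p = 0.0216, adjusted p = 0.0549) and by -0.21 between lung Trm and Tem (exact permutation p = 0.474, adjusted p = 0.593), neither past the threshold. Paneth and goblet markers rose in intestine Trm, 4 of 5 (summed linear level 1.17 to 5.52, against 0.0192 to 0.115 in Tem), and their part was not tested. In the lists, Lnpep (1.29), an aminopeptidase of endosomes, and the chaperone gene Calr (0.87) rose while Tpp2 (-1.35) fell, and Isg15 (1.73), which encodes a ubiquitin-like modifier, rose while Irf2, above background on 1 of 6 intestine Trm arrays, was called lower. Of the cofactor list 0 of 21 passed in limma.

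Between the Trm populations few proteasome genes differed. Lung Trm against liver Trm gave 3 higher and 1 lower of 45 (all genes: 9.22% higher, 8.64% lower, 17.9% in all). Without overlap, 1 gene was higher (all genes: 2.33%) and 0 were lower (3.12%). Psmb8 was higher in lung Trm (0.82 ± 0.28, limma adjusted p = 0.0458), by 0.0062 to 1.03 within the 5 slides. With the slide as a block it was not called (0.79, limma adjusted p = 0.0791). The Psma1 gene of the alpha ring (0.74 ± 0.25, limma adjusted p = 0.0429) and Psmd8 (0.92 ± 0.30, limma adjusted p = 0.0429) were higher as well. Psmg2, a chaperone of alpha ring assembly, was lower (-1.02 ± 0.34, limma adjusted p = 0.0435), at -3.15 to -2.68 in lung Trm (median -2.93), against -1.85, -2.95, -1.93, -1.42 and -1.38 in liver Trm, where replicate 2 lay inside the lung Trm range.

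With the slide as a block, 1 of the 4 genes, Psmd8, was called. The count also moved with single arrays. It was 0 without liver Trm 3, 5 or 6 or without lung Trm 1, 2, 3, 4 or 6, and it was 16 without lung Trm 5. It was 15 (13 higher, 2 lower) with quantile normalization and 27 (all higher) when all probes set the scale, and 1 (lower) without the 4 arrays that stood apart. The scaling over all probes moved the median of all genes to 0.68 from the 0.23 of the chosen scaling. The within-array difference Psmb8 minus Psmb5 averaged -0.95 ± 0.20 in lung Trm and -1.89 ± 0.55 in liver Trm (SD, n = 6 and 5), a difference of 0.94 (exact permutation p = 0.00433, adjusted p = 0.0446, higher on 5 of 5 slides). The groups met only at their edges, lung Trm ending at -1.31 and liver Trm at -1.26. Psmb9 differed by 0.83 ± 0.31 between lung and liver Trm and was not called (limma adjusted p = 0.0602), but it was called in 6 of 11 other settings, among them quantile normalization (0.85, limma adjusted p = 0.0238), and without lung Trm 5 (1.11, limma adjusted p = 0.00472).

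Intestine Trm against liver Trm gave 3 higher of 45 and 0 lower (all genes: 8.61% higher, 2.85% lower, 11.5% in all). Psmd12, a lid subunit, ran from -1.84 to -1.26 in intestine Trm (median -1.66), against -2.48, -2.19, -3.29, -2.13 and -3.50 in liver Trm (1.12 ± 0.27, limma adjusted p = 0.00876). Psmc2 ran from -0.55 to -0.17 in intestine Trm (median -0.44), with every array above the liver Trm range (0.78 ± 0.20, limma adjusted p = 0.0109). Psma1 ran from -1.83 to -1.12 in intestine Trm (median -1.45), above the liver Trm range of -2.53 to -2.08 (0.80 ± 0.25, limma adjusted p = 0.0356), and this call was lost without liver Trm 2, 3, 5 or 6 or intestine Trm 3, 4, 5 or 6.

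No overlap was seen for 9 genes, all higher in intestine Trm (all genes: 4.66%), and 0 were lower without overlap (1.37%). With quantile normalization the split of calls was 2 higher and 1 lower. The immunoproteasome genes were not called, with Psmb9 at 0.76 ± 0.31 (limma adjusted p = 0.114) and Psmb8 at 0.63 ± 0.28 (limma adjusted p = 0.145). Between intestine and lung Trm 0 of 45 genes were called by limma (all genes: 5.14% higher, 4.27% lower, 9.41% in all), 2 had an unadjusted p under 0.05, and 1 was called without lung Trm 5. No gene was without overlap (all genes: 3.84% higher, 1.62% lower).

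The sorted cells were further compared with the whole tissue they came from, on a scale over all 35 arrays whose levels differ from those above. Sorted and whole samples lay on different slides and scans, so cell sort and slide cannot be told apart. On this scale Psmb8 had its highest mean in Tem (-0.51 ± 0.48, SD, n = 6), followed by lung Trm (-1.04 ± 0.70, n = 6), intestine Trm (-1.25 ± 0.49, n = 6) and liver Trm (-2.09 ± 0.54, n = 5). The means were -2.53 ± 0.89 in whole intestine, -3.73 ± 0.67 in whole lung, -3.81 ± 0.31 in whole liver and -4.00 ± 3.03 in whole PBMC (SD, n = 3 each). The neighbours lung and intestine Trm lay within 1 SD of each other, as did liver Trm and whole intestine, and whole lung, whole liver and whole PBMC. The last of these spans -7.49, -2.03 and -2.48, of which the low value is PBMC 1.

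**Figure D4:**
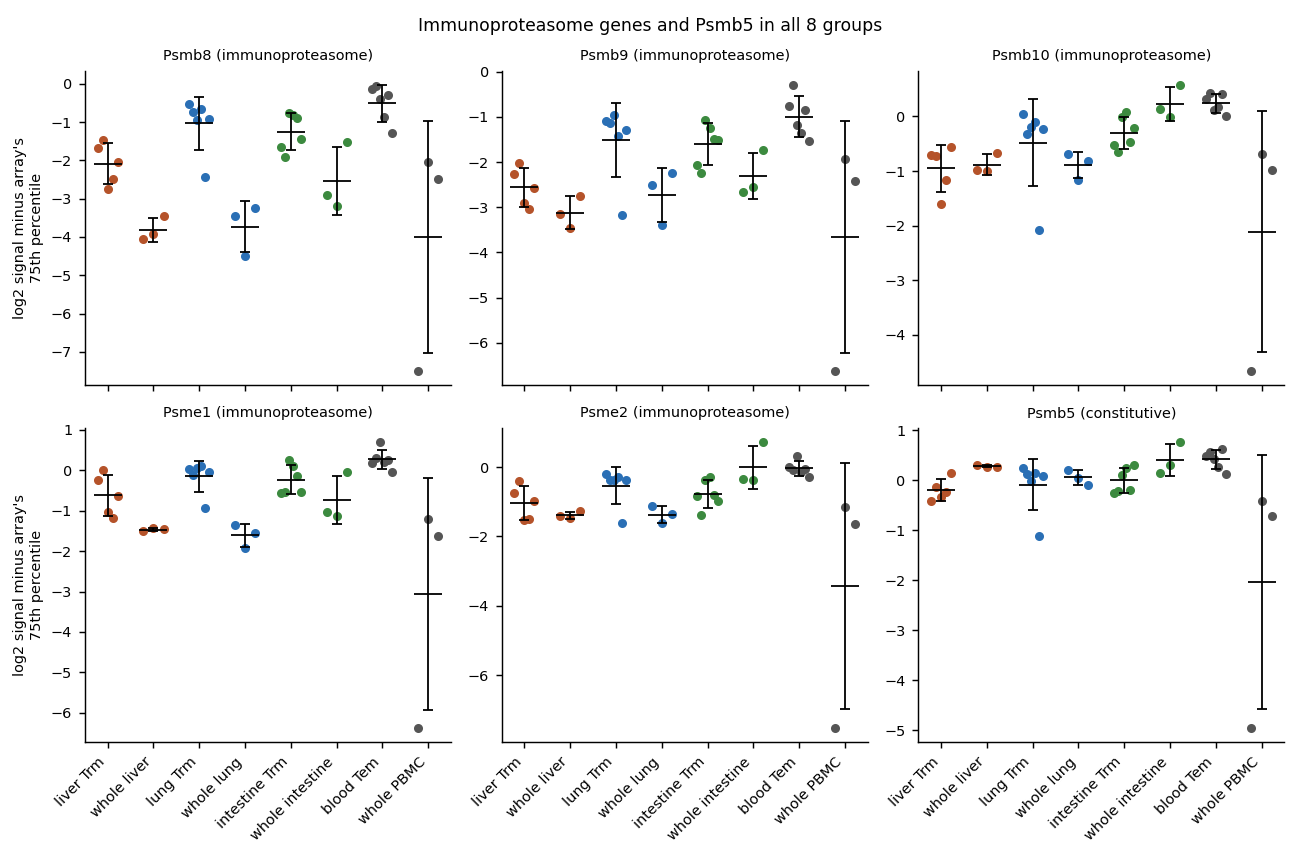
Log2 levels of the 5 immunoproteasome genes and of Psmb5 in all 8 groups, relative to the 75th percentile of each array over the probes seen on all 35 arrays, with 1 point per array, a line for the group mean and bars of 1 SD. Psmb8 lies between -2.76 and -1.46 in liver Trm and between -4.05 and -3.46 in whole liver, and whole PBMC 1 lies far below the other PBMC arrays (-7.49 for Psmb8).

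In liver Trm against whole liver, 8 of 45 genes fell and 0 rose (all genes: 23.8% lower, 8.53% higher, 32.3% in all). Without overlap, 2 genes were higher and 18 lower (all genes: 10% and 29.5%). Psme3, the nuclear relative of Psme1 and Psme2, stood at -2.70, -4.35, -2.70, -2.88 and -2.79 in liver Trm, against 0.68, 0.01 and 0.39 in whole liver (-3.44 ± 0.80, limma adjusted p = 0.000898). The groups were far apart. Of the assembly chaperones, Psmg1 (-2.12 ± 0.44, limma adjusted p = 0.000228) and Psmg3 (-1.84 ± 0.46, limma adjusted p = 0.00200) fell, each without overlap, and so did Psmg2 (limma adjusted p = 0.0362). The other 4 were the cap genes Psmd1, Psmc6, Psmd2 and Psmd6.

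Psmb8 stood at -1.67, -1.46, -2.76, -2.48 and -2.05 in liver Trm, against -4.05, -3.93 and -3.46 in whole liver. Every liver Trm array was above every whole liver array, but the difference of 1.73 ± 0.70 was not called (limma adjusted p = 0.0555), in a fit whose spread includes the PBMC arrays. It was called without the 4 arrays that stood apart (1.57 ± 0.39, limma adjusted p = 0.00204), as was Psme1 (0.70 ± 0.24, limma adjusted p = 0.0241), and Psmb8 also without liver Trm 3 (limma adjusted p = 0.0470). Psmb8 minus Psmb5 differed by 2.20 (exact permutation p = 0.0179, the smallest that 5 against 3 allows, adjusted p = 0.0536). Psmb10 differed by -0.07 ± 0.54, and its sign turned with quantile normalization (0.27). With quantile normalization the split of calls was 3 higher and 5 lower, and 1 higher and 5 lower when all probes set the scale.

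In lung Trm against whole lung, 10 of 45 rose and 3 fell (all genes: 15.7% higher, 25.8% lower, 41.6% in all). Without overlap, 10 were higher and 4 lower (all genes: 19.1% and 28.7%). Psmb8 ran from -2.43 to -0.53 in lung Trm (median -0.83), against -3.45, -4.50 and -3.24 in whole lung (2.69 ± 0.68, limma adjusted p = 0.00137). Psmd8 ran from -5.07 to -3.75 in lung Trm (median -3.87), against -7.42, -7.53 and -6.90 in whole lung, where 1 of 3 arrays was above background (3.18 ± 0.55, limma adjusted p = 1.46e-05). Both groups were separate for these genes. The beta ring gene Psmb1 (2.21 ± 0.48, limma adjusted p = 0.000307), the alpha ring gene Psma6 (1.21 ± 0.42, limma adjusted p = 0.0181), the cap gene Psmd6 (1.55 ± 0.53, limma adjusted p = 0.0173), Psme1 (1.45 ± 0.59, limma adjusted p = 0.0482) and the chaperone gene Psmg4 (1.22 ± 0.48, limma adjusted p = 0.0404) also rose.

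Psmb2, Psmd14 and Psmd10 were not well above background on any whole lung array and were called higher in lung Trm. Against the lowest signal well above background on the whole lung arrays, they were 2.03-fold, 1.64-fold and 1.41-fold higher. On the log2 scale this is 1.02, 0.71 and 0.50, beside a median of 0.39 among the 9389 probes never above background. Psmg2 (-1.81 ± 0.40), Psme3 (-1.99 ± 0.77) and Psmg1 (-1.39 ± 0.42) fell. With single arrays left out, the Psme1 call was lost in 8 of 9 fits (all but that without lung Trm 5), with an adjusted p in limma of up to 0.159. The Psme3 call was lost without lung Trm 1, 2, 3 or 4 or any 1 whole lung array (up to 0.121), and the Psmg4 call without lung Trm 1, 2, 3 or 6 or whole lung 2 or 3 (up to 0.189). The count of 13 was 5 without whole lung 2, 8 without whole lung 3, 21 (13 higher, 8 lower) without the arrays that stood apart and 16 (15 higher, 1 lower) when all probes set the scale. Psmb8 minus Psmb5 differed by 2.83 (exact permutation p = 0.0119, adjusted p = 0.0446).

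In intestine Trm against whole intestine, 5 of 45 rose and 0 fell (all genes: 11.7% higher, 20.1% lower, 31.8% in all). Without overlap, 4 were higher and 2 lower (all genes: 13.6% and 19.7%). Psmb7, a constitutive catalytic subunit, ran from -4.52 to -3.08 in intestine Trm (median -4.12), against -5.27, -5.33 and -4.99 in whole intestine (1.31 ± 0.42, limma adjusted p = 0.0151). The groups did not overlap, and the call was lost without whole intestine 1 (adjusted p = 0.0537 in limma) or 2 (adjusted p = 0.0620 in limma). Psmd8 (1.42 ± 0.55, limma adjusted p = 0.0453) and Psmd9 (0.85 ± 0.33, limma adjusted p = 0.0491) rose, and the Psmd8 call was lost without intestine Trm 2, 3, 4 or 5 or whole intestine 1 or 2 (highest adjusted p 0.315). Whole intestine 3 lay far from arrays 1 and 2 for Psmd8, at -3.84 against -6.51 and -6.86. With single arrays left out, the Psmd8 difference ran from 0.86 to 2.37. Psmb8, not called here, stood at -2.89, -3.19 and -1.52 in whole intestine 1 to 3. Psme4 and Psmd14, not well above background on any whole intestine array, were also called higher. No fold is given for them, since the median among the 9389 probes never above background was 0.96 in this comparison.

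The pairs moved in opposite directions in the intestine. Psmb8 minus Psmb5 was higher in intestine Trm by 1.69 and Psmb9 minus Psmb6 by 1.05, while Psmb10 minus Psmb7 was lower by 1.84 (exact permutation p = 0.0119 each, the smallest that 6 against 3 allows, adjusted p = 0.0446). Psmb10 itself ran from -0.65 to 0.08 in intestine Trm (median -0.34), against 0.13, -0.02 and 0.58 in whole intestine, and its difference of -0.53 ± 0.52 was not called (limma adjusted p = 0.440). Without whole intestine 1 the count of called genes was 2, without whole intestine 2 it was 1, and without intestine Trm 2, 3, 4 or 5 it was 2 or 3.

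In blood Tem against whole PBMC, 38 of 45 genes were called higher and 2 lower (all genes: 43.9% higher, 11.3% lower, 55.2% in all). The median of the 45 was 2.56, against 0.84 over all genes. Without overlap, 34 were higher and 1 lower (all genes: 35.3% and 11%). All 5 immunoproteasome genes, all 7 alpha, all 7 constitutive beta and all 6 ATPase genes were called higher. Of the genes called higher, Psmb2, Psmd5, Psmd6, Psmd8 and Psmd10 were not well above background on any PBMC array. Against the lowest signal well above background there, Psmd8 was 4.24-fold, Psmd5 1.61-fold and Psmd6 1.44-fold higher. By the same bound, Psmb2 (0.91-fold) and Psmd10 (0.86-fold) were not shown to be higher. Psme2 differed by 3.39 ± 0.70 (limma adjusted p = 0.000178) and Psmb8 by 3.49 ± 0.68 (limma adjusted p = 9.07e-05), while the chaperone genes Psmg2 (-1.49 ± 0.40) and Psmg1 (-0.99 ± 0.42) fell. Both calls were lost without PBMC 1, at -0.91 for Psmg2 (limma adjusted p = 0.0576) and -0.38 for Psmg1 (limma adjusted p = 0.503), and that of Psmg1 also without Tem 2, 3, 4 or 6. The Psmg1 difference turned to 0.92 when all its probes were averaged.

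Much of this size came with PBMC 1. Psme2 stood at -7.52, -1.14 and -1.63 in PBMC 1 to 3, against -0.28 to 0.33 in Tem (median -0.06). Psmb8 stood at -7.49 in PBMC 1. Both readings lie near that of Psmd10 there (-7.66), a gene not well above background on any PBMC array. The Psme2 and Psmb8 differences that include PBMC 1 are therefore not measured folds. Other members read as low on PBMC 1, such as Psma2 (-7.64) and Psmb3 (-7.60). Without the arrays that stood apart, PBMC 1 among them, 15 genes rose and 2 fell, with a median of 0.56 against -0.20 over all genes. Psmb8 (1.06 ± 0.38, limma adjusted p = 0.0365) and Psme1 (0.94 ± 0.24, limma adjusted p = 0.00525) were then called and Psmb9 (0.56, limma adjusted p = 0.246), Psmb10 (0.44, limma adjusted p = 0.276) and Psme2 (0.61, limma adjusted p = 0.0801) were not. Psmb8 minus Psmb5 differed by 1.05 between Tem and PBMC (exact permutation p = 0.0119, adjusted p = 0.0446), with Psmb8 on PBMC 1 read near background. Psmb9 minus Psmb6 differed by -0.42 (exact permutation p = 0.274) and Psmb10 minus Psmb7 by -0.28 (exact permutation p = 0.583), and neither passed. The T cell markers summed to 6.11 to 11.4 in Tem and 0.0976 to 1.63 in whole PBMC.

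**Figure D5:**
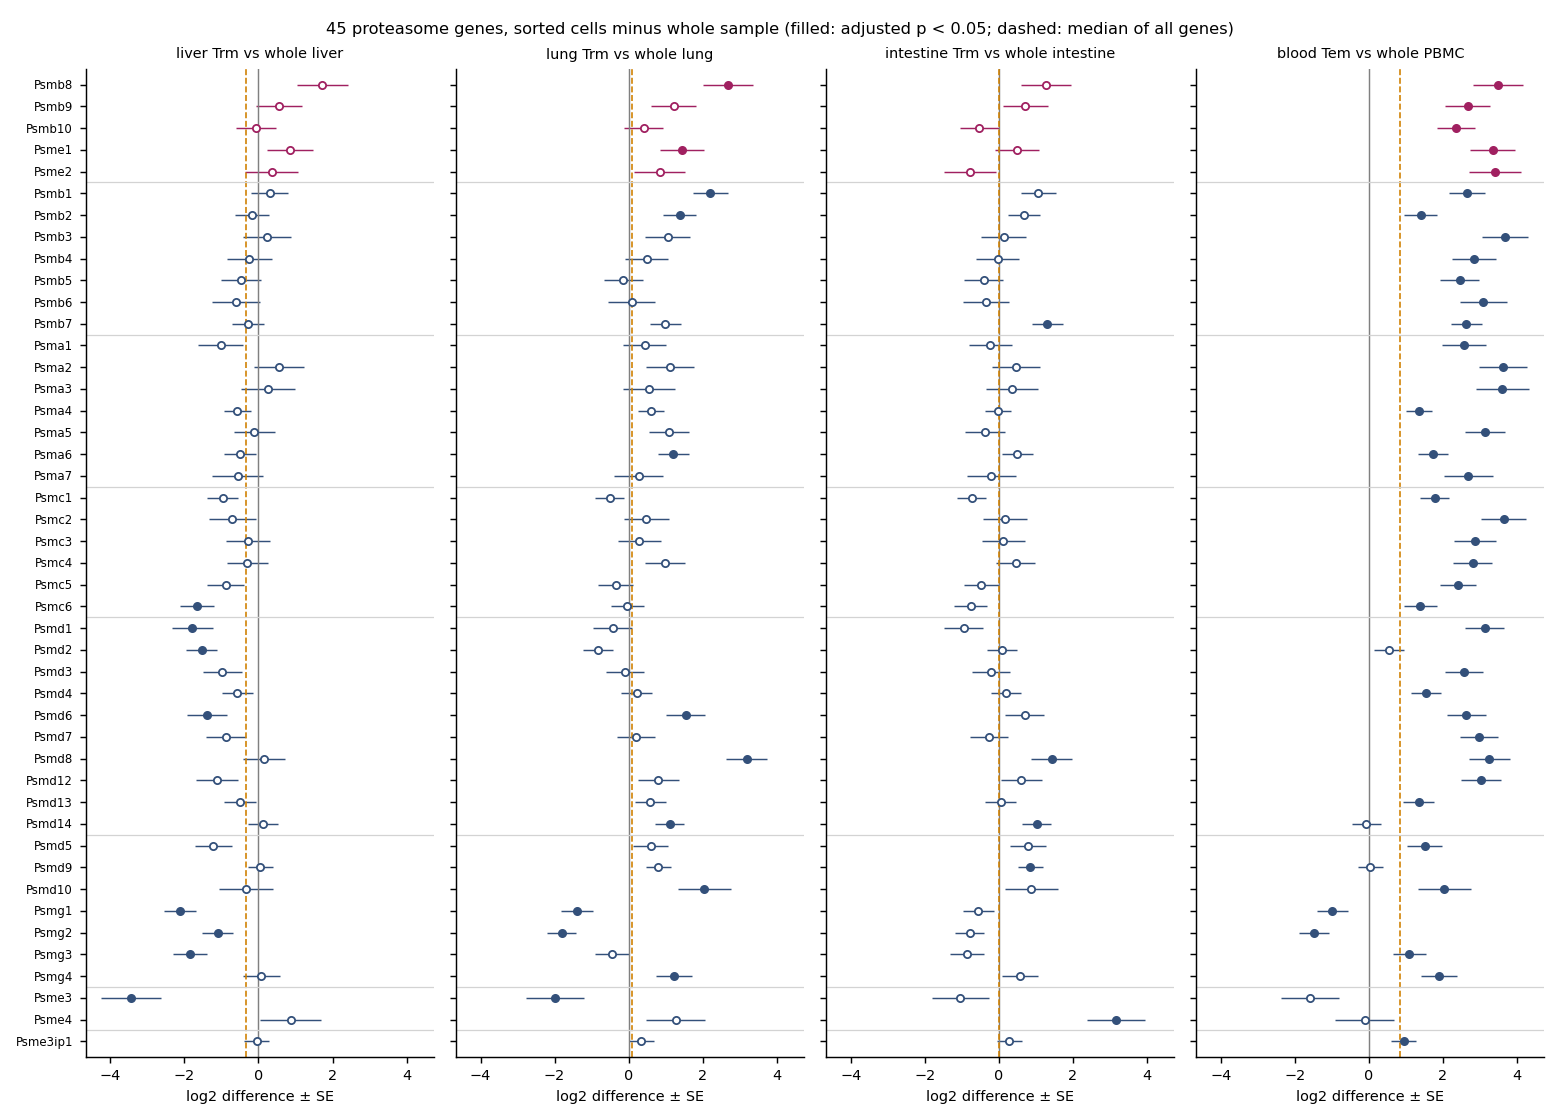
Log2 difference of each tested gene between a sorted population and its whole tissue (liver, lung, intestine, and Tem minus whole PBMC), with genes ordered by role down the page and bars of 1 SE; filled dots passed an adjusted p of 0.05 in limma and the dashed line is the median of all genes tested. Filled dots number 8, 13, 5 and 40, and most genes lie right of 0 in Tem minus PBMC, where the median of all genes is 0.84.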

How the data were processed

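RNA from 23 sorted T cell samples and 12 whole samples was amplified and hybridised to one-colour arrays, per the labels' protocols. The authors deposited scanner output with spot intensity values from Agilent Feature Extraction 11.0.1.1, per the file headers (version 10.7, and Partek, are named in the submitters' processing notes). They also deposited a table of log2 values, which was recovered by quantile normalization of the 35 arrays. The log2 processed intensity minus the 75th percentile of each array was used, taken over the 4042 probes above background on all sorted arrays or the 1341 above it on all 35. A probe was kept if 3 or more arrays of some group had it well above background, with 1 probe per gene (the highest mean).

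Differences were tested with limma 3.58.1 in R 4.3.3, two-sided, in 1 fit of the 4 sorted groups (8621 genes) and 1 fit of all 8 groups (10635 genes). Calls are at an adjusted p of 0.05 (Benjamini-Hochberg over all genes of a fit). The fits were also run on simulated data with independent normal noise. That noise held no slide effect, outlying array or shift of the background, so the run cannot speak to those. The number of arrays limits the precision.

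Members and lists were chosen with earlier results of these data known. The text names the immunoproteasome genes and their counterparts, the 3 called genes with the largest difference in each direction if all arrays of the brighter group saw them above background, the genes without a kept probe, and 3 called genes of each list. Other called genes were named after their values were seen. Replicate numbers equal slides, and same-numbered samples did not deviate together (33 pairs, r from -0.363 to 0.438, 6 over 0.1), so they were not taken as pairs. Alternatives covered normalization, background correction, filters, probe choice, array weights, the slide as a block and each array left out.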

Additional observations from a re-analysis of the deposited data

Results flagged for a closer look

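Lung Trm 5 lay apart from the other 5 lung Trm arrays for 7 genes. It stood at -1.26 for Psmb10 (the others 0.19 to 0.53), -0.29 for Psmb5 (0.47 to 0.74), -1.60 for Psmb8 (-0.46 to -0.05) and -2.34 for Psmb9 (-0.87 to -0.47). The values were -2.75 for Psmd12 (the others -2.13 to -1.78), -0.12 for Psme1 (0.39 to 0.65) and -0.80 for Psme2 (0.12 to 0.29). Tem 3 lay apart from the other Tem arrays at -0.0587 for Psmb10 (the others 0.73 to 0.87) and 0.26 for Psmb5 (0.83 to 1.02). Psmb9 minus Psmb6 was -2.06 in intestine Trm 2, against -1.38 to -1.03 on the other intestine Trm arrays. These are 10 of 76 groups examined for an array far from the rest. Chance gives about 1 in 20 for independent groups. The 76 reuse the same arrays, and most of the 10 are lung Trm 5 or Tem 3, so they are not independent.

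The difference between Trm and whole organ was itself different between organs for 4 genes, by the interaction term in limma. This is 3 of 45 for lung minus liver, 1 of 45 for intestine minus liver and 0 of 45 for intestine minus lung, against 16.0%, 14.6% and 22.1% of all genes. It was larger in lung than in liver by 1.72 ± 0.60 for the alpha ring gene Psma6 (adjusted p = 0.0456), by 2.94 ± 0.76 for Psmd6 (adjusted p = 0.00577) and by 3.02 ± 0.79 for Psmd8 (adjusted p = 0.00651). For the cap chaperone gene Psmd5 it was larger in intestine than in liver by 2.01 ± 0.68 (adjusted p = 0.0426). Of the 35 arrays, Psma6 was well above background on 33, Psmd8 on 29, Psmd5 on 23 and Psmd6 on 19. Readings near background thus enter these sizes, most of all for Psmd6. Whole liver 2, an array that stood apart, was the highest whole liver array for all 4 genes. It stood at -3.83 for Psma6 (the others -5.06 and -5.07) and -4.81 for Psmd6 (-5.74 and -5.88). For Psmd8 it was -4.45 (-5.81 and -5.95) and for Psmd5 -4.24 (-6.01 and -5.54). The terms were not refitted without this array, and the causes were not tested.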

How the results depend on the processing

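Psmb8, Psmb9 and Psmb10 stayed lower in liver Trm than in Tem, and called, in all 11 settings that keep every replicate or drop the arrays that stood apart, with differences of -1.65 to -1.10, -1.64 to -0.998 and -1.27 to -0.75. The counts of called genes moved, and the cause was not tested. For liver Trm against Tem the count of 19 became 37 (scaling over all probes), 10 (without the arrays that stood apart, a setting chosen after seeing the data) and 30 (array weights). For lung Trm against Tem it became 1 (array weights). For intestine Trm against Tem it became 2 (quantile, deposited values, mean of probes), 3 (all-probe scaling, array weights) and 0 (no filter, stricter filter, without the arrays apart, slide block). For lung against liver Trm it became 15 (quantile, deposited values), 27, 8 (no filter), 1 (without the arrays apart, slide block), 26 (weights) and 2 (the 2 groups alone). For intestine against liver Trm it became 1 (no filter) and 13 (weights), and for intestine against lung Trm 1 (normexp) and 2 (weights). Against whole tissue it became 21 and 23 in liver Trm (without the arrays apart, weights), 21, 35 and 20 in lung Trm (those and the 2 groups alone), 2, 3, 12, 25 and 3 in intestine Trm (no filter, stricter filter, without the arrays apart, weights, block) and 17 in Tem (without the arrays apart). The pairs past the threshold became 15 (quantile, deposited values) and 0 (mean of probes, without the arrays apart, slide block). With the replicate number (slide) as a block, 14 genes were called in liver Trm against Tem. Leaving out single arrays gave 12 to 19 genes in liver Trm and 0 to 1 in intestine Trm against Tem, 0 to 0 in lung Trm against Tem, 0 to 16 for lung against liver Trm, 2 to 4 for intestine against liver Trm, 0 to 1 for intestine against lung Trm, 6 to 8, 5 to 17, 1 to 5 and 32 to 40 against whole liver, lung, intestine and PBMC, and 0 to 14 pairs.

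No reversed value but that of Psmg1 was of a called gene. Psmb10 in liver Trm against whole liver turned to 0.27 (quantile, deposited values), 0.34 (all-probe scaling), 0.0148 (normexp) and 0.0174 (block). Psmb7 turned to 0.51 (quantile, deposited values), 0.13 (all-probe) and 0.0352 (normexp) there, to 0.0117, 0.0120 and 0.0213 (quantile, deposited values, normexp) in liver Trm against Tem, to 0.0551 and 0.0189 (normexp, weights) in intestine Trm against Tem, to -0.0382 and -0.0375 (quantile, deposited values) for intestine against liver Trm and to 0.30 (all-probe) for lung against liver Trm. Psmb5 turned to 0.0616, 0.0557, 0.20, 0.14 and 0.0299 (quantile, deposited values, all-probe, mean of probes, without the arrays apart) for intestine against liver Trm, to -0.0031, -0.14, -0.0070 and -0.0395 (quantile, all-probe, mean of probes, weights) for intestine against lung Trm, to 0.0646, 0.0552, 0.33 and 0.15 (quantile, deposited values, all-probe, mean of probes) for lung against liver Trm and to 0.17 (mean of probes) against whole lung. Psmb10 turned to -0.0357 (all-probe) for intestine against lung Trm, Psmb6 to -0.13 (all-probe) in intestine Trm against Tem and to -0.31 (without the arrays apart) in lung Trm against whole lung, and Psmg1 to 0.92 (mean of probes) in Tem against PBMC. With single arrays left out, signs also turned for Psmb10 (-0.17 to 0.0921, liver Trm against whole liver; -0.0632 to 0.29, intestine against lung Trm), Psmb5 (-0.10 to 0.0814, intestine against liver; -0.21 to 0.0426, lung against liver; -0.0487 to 0.165, intestine against lung; -0.21 to 0.0638, lung against whole lung), Psmb6 (-0.0248 to 0.12, lung against liver), Psme2 (-0.0429 to 0.15, intestine against liver), Psmb9 (-0.35 to 0.0298, intestine against lung) and Psmb7 (-0.26 to 0.15, intestine Trm against Tem). Genes near background, such as Psmd14, Psmd6 and Psme4, are limited by signal.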
